A study of Mus musculus with 16 samples.

Results

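Genes of Schwann cells and their myelin were followed through the quadriceps of mice, a thigh muscle acting on the knee. The 8 genes were Mbp, Sox10, S100b, Prx, Cdh19, Mag, Mal and Ncmap, chosen by name as Schwann cell genes from the 17370 genes of the deposited table, and all 8 passed the filter on low counts. RNA was sequenced from 16 quadriceps, which the library names join as the left and right limbs of 8 animals. By this reading of the names, each animal had its anterior cruciate ligament, which holds the knee joint, cut in 1 limb (ACL transection). Over the next 7 days the mice were given either an inhibitor of CSF1-R at 40 mg/kg or 0.5% sucrose as placebo, by way of the drinking water. CSF1-R is the receptor that macrophages need to survive. The 4 groups of 4 libraries were healthy placebo, injured placebo, healthy inhibitor and injured inhibitor. From the names, a healthy quadriceps was read as the uncut limb of an operated animal rather than muscle of an unoperated one. Every healthy library was named as a left limb and every injured library as a right limb, so side and injury cannot be told apart. Strain, age and sex of the mice, and the day on which muscle was taken, were not given in the sources used here.

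Schwann cells are the glia of peripheral nerves. In muscle they wrap the motor and sensory axons that run between the fibres, in myelin around large axons and without it around thin ones, and they cap the nerve ending at the neuromuscular junction. Sox10 is the transcription factor that keeps the lineage in being, and with Egr2 it switches on the myelin genes. When an axon is lost, Schwann cells shut down myelin genes and take on a repair state. In a piece of whole muscle these genes report a minor cell type, and fewer Schwann cells and less RNA per Schwann cell cannot be told apart.

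The promoters of Prx, Mal and Mag are shown because Prx and Mal were the most closely correlated pair over the libraries, and Mag was the least expressed of the 8. Each is the 250 bases before the most upstream RefSeq start on GRCm38.p6, written 5′ to 3′ on the gene's strand, with capitals for a SOX core (ACAAAG or ACAATG) or an EGR core (GCGTGGG) on either strand. Prx lies at chr7:27499074-27499323 on the plus strand, Mal at chr2:127656696-127656945 on the minus strand and Mag at chr7:30914923-30915172 on the minus strand.
Prx: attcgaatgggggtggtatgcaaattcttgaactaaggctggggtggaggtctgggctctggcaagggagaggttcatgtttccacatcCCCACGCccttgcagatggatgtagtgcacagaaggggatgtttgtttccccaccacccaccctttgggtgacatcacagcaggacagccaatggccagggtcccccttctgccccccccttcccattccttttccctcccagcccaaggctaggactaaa
Mal: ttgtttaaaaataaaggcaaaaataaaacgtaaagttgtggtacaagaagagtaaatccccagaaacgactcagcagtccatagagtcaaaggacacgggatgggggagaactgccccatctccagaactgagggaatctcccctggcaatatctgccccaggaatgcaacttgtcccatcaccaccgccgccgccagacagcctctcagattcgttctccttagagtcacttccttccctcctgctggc
Mag: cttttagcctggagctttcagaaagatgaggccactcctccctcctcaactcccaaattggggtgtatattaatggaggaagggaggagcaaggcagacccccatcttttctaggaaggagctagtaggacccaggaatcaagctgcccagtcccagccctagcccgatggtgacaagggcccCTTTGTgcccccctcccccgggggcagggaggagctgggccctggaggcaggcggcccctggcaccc
Prx held 1 EGR core, read on the opposite strand from 161 to 155 bases before the start, and Mag 1 SOX core, also on the opposite strand, from 67 to 62 bases before it. Mal held neither. Of 32851 promoter windows of the same length, 25.2% held a SOX core and 4.3% an EGR core, so a SOX core as in Mag is common. The windows of S100b and Ncmap, the other genes with an entry in the promoter table, held neither core.

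Levels are given as counts-per-million (CPM) values after TMM scaling of the libraries, and library totals ran from 20117023 to 27133286 counts. A floor of 3 counts stood at 0.111 to 0.149 CPM before that scaling, and this floor covers counting error only. Muscle markers were abundant: 4 fibre genes (Acta1, Ckm, Myh4 and Myh1) summed to at least 74000 CPM in every library. The libraries that stood apart were 4 with much Prg4, the lubricin of joint surfaces. Healthy placebo 4, injured placebo 2, injured placebo 3 and healthy inhibitor 1 held 169 to 286 CPM, and the other 12 libraries 3.97 to 19.5 CPM. The first 3 of these also held the most macrophage RNA, at 132 to 276 CPM summed over 6 markers, against 7.36 to 44.5 CPM in the others; in injured quadriceps the sum was 27.7 to 276 CPM with placebo and 15.3 to 31.8 CPM with inhibitor. Summed over 10 markers of joint and cartilage, the 4 libraries held 224 to 350 CPM and the others 14.4 to 51.4 CPM. Adipocyte RNA varied more widely still, from 18.2 CPM in injured placebo 2 to 1050 CPM in injured inhibitor 4, summed over 6 markers. Some other cells share genes of the set, and their defining markers were read too. Dct of melanocytes was at most 0.76 CPM and Cldn11 of oligodendrocytes at most 0.618 CPM, both within the range of Mag (0.191 to 0.923 CPM). The other markers on those 2 lists were not found by symbol in the deposited table, which was already filtered on low features. Markers of T cells, which also use Mal, summed to 1.1 to 3.97 CPM over 3 genes, beside 0.545 to 3.64 CPM of Mal. The part of these cells in the levels was not tested.

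Mbp, which encodes the protein that zips the inner faces of the myelin membrane together, was the most abundant of the 8. It was at 9.77, 15.2, 10.4 and 4.85 CPM in healthy placebo 1 to 4 and at 11.5, 8.94, 11.1 and 20.4 CPM in injured placebo 1 to 4. It was at 10.9, 12.3, 27.6 and 6.51 CPM in healthy inhibitor and at 11.6, 11.2, 7.76 and 14.0 CPM in injured inhibitor. All 4 groups overlapped, with the highest value in healthy inhibitor 3 and the lowest in healthy placebo 4. The gene spans chromosome 18 from 82475146 to 82585637 on GRCm38 (ENSMUSG00000041607), and the locus also gives the golli transcripts of other cell types, which counts per gene do not separate.

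Prx encodes periaxin, a scaffold that ties the Schwann cell's outer surface to the dystroglycan complex. It was at 6.11, 11.1, 6.70 and 3.04 CPM in healthy placebo 1 to 4, at 8.09, 2.87, 4.57 and 11.1 CPM in injured placebo, at 5.21, 7.26, 13.3 and 4.08 CPM in healthy inhibitor and at 6.50, 5.93, 4.09 and 7.68 CPM in injured inhibitor. Mal, a small membrane protein that sorts lipid rafts into myelin, was at 1.32, 2.94, 1.62 and 0.706 CPM in healthy placebo, at 2.32, 0.545, 0.882 and 2.77 CPM in injured placebo, at 1.24, 1.26, 3.64 and 0.794 CPM in healthy inhibitor and at 1.72, 1.06, 0.991 and 1.82 CPM in injured inhibitor. Both genes were highest in healthy inhibitor 3 and lowest in injured placebo 2, and within each of their groups the libraries spread over a wider range than the group means did. Prx shares 300 of its 5579 exon bases with the antisense gene Gm15541, so some of its reads may belong to that gene; none of the other 7 shares an exon with a neighbour in GENCODE M21.

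Sox10 was at 1.25, 1.81, 2.16 and 1.06 CPM in healthy placebo, at 2.01, 0.654, 1.08 and 2.56 CPM in injured placebo, at 2.06, 1.15, 3.22 and 1.48 CPM in healthy inhibitor and at 1.48, 0.847, 1.24 and 2.42 CPM in injured inhibitor. It too was highest in healthy inhibitor 3 and lowest in injured placebo 2, and its groups overlapped. Cdh19, a cadherin of Schwann cells and their precursors, ranged from 0.327 CPM in injured placebo 2 to 2.41 CPM in healthy inhibitor 3, which is 9 to 63 counts. Mag, the glycoprotein on the myelin surface that faces the axon, ranged from 0.191 CPM in healthy inhibitor 2 to 0.923 CPM in injured placebo 4, which is 5 to 22 counts, so counting error weighs heavily on it.

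S100b encodes a calcium-binding protein of Schwann cells that adipocytes and cartilage cells also make. It was at 0.662, 1.49, 1.29 and 1.50 CPM in healthy placebo, at 1.34, 0.763, 1.32 and 1.39 CPM in injured placebo, at 1.24, 1.07, 2.03 and 0.635 CPM in healthy inhibitor and at 1.24, 0.370, 0.950 and 1.57 CPM in injured inhibitor. Healthy placebo 4, where Mbp was at its lowest, held one of the higher S100b levels; that library also had 251 CPM of Prg4 and 40.8 CPM of summed adipocyte markers. Injured inhibitor 2, lowest in S100b, had 21.6 CPM of adipocyte markers and 10.4 CPM of Prg4. Other libraries did not share this order. Injured placebo 2, with S100b at 0.763 CPM, had 220 CPM of Prg4. Healthy placebo 1, with S100b at 0.662 CPM, had 316 CPM of adipocyte markers. Healthy inhibitor 3, highest in S100b, had 14.7 CPM of Prg4 and 425 CPM of adipocyte markers. The part of either cell type in the S100b level was not tested.

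Ncmap encodes a membrane protein of the loops of myelin that stay uncompacted. It was at 1.25, 0.452, 0.499 and 0.353 CPM in healthy placebo, at 0.492, 0.109, 0.281 and 0.420 CPM in injured placebo, at 0.595, 0.459, 1.34 and 0.900 CPM in healthy inhibitor and at 0.956, 0.635, 0.578 and 0.636 CPM in injured inhibitor. The value in injured placebo 2 rests on 3 counts. All 4 injured inhibitor libraries lay above all 4 injured placebo libraries, while every other pair of groups overlapped. Between those 2 injured groups, 5.64% of all genes did not overlap. On GRCm38 the other 7 genes lie on chromosome 15 from 79154908 to 79165240 (Sox10, ENSMUSG00000033006), chromosome 10 from 76253853 to 76261159 (S100b, ENSMUSG00000033208), chromosome 7 from 27499324 to 27520214 (Prx, ENSMUSG00000053198) and from 30899176 to 30914873 (Mag, ENSMUSG00000036634), chromosome 1 from 110888326 to 110977584 (Cdh19, ENSMUSG00000047216), chromosome 2 from 127633226 to 127656695 (Mal, ENSMUSG00000027375) and chromosome 4 from 135369576 to 135398227 (Ncmap, ENSMUSG00000043924).

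**Figure D1:**
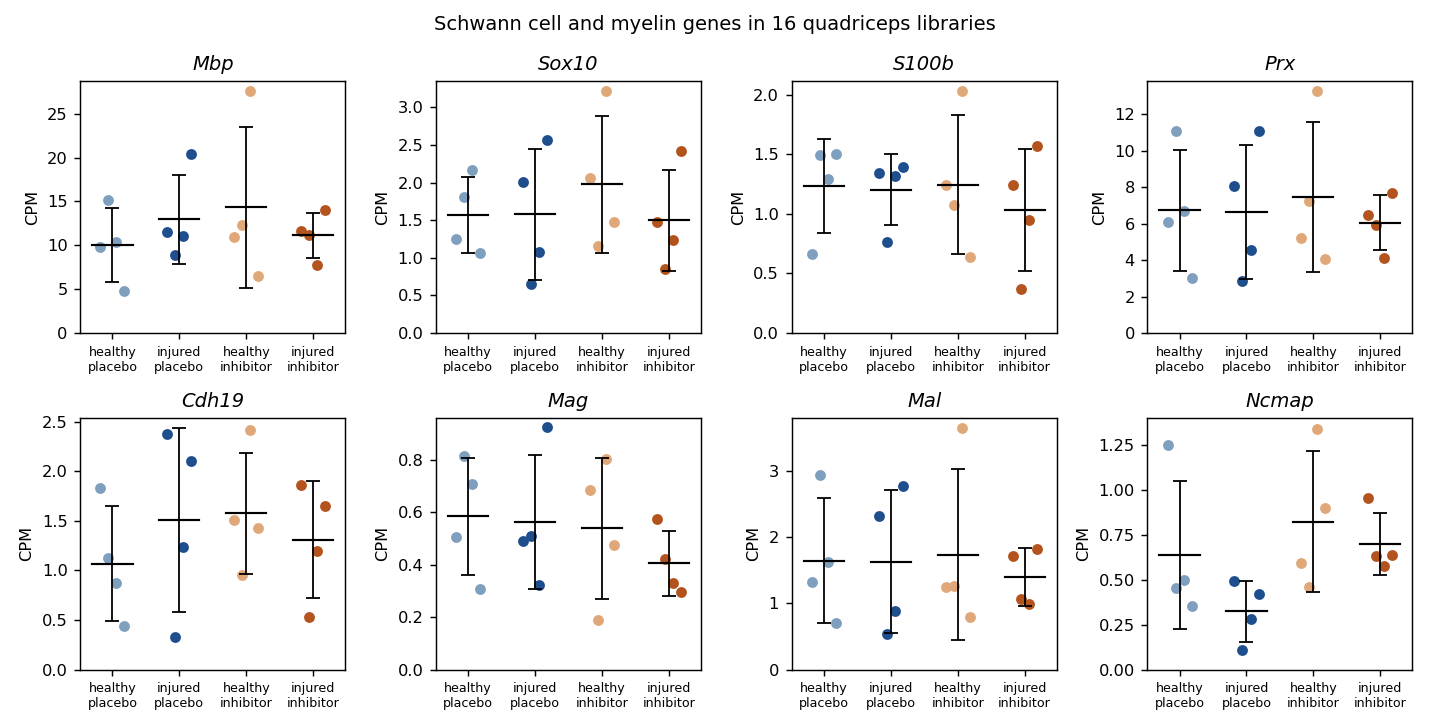
CPM (y axis, from 0) of the 8 genes in the 16 libraries, with points for libraries, black lines for group means and bars for the SD over 4 libraries. The groups overlap for every gene except Ncmap, whose injured placebo libraries (0.109 to 0.492 CPM) lie below the injured inhibitor ones (0.578 to 0.956 CPM). Between those 2 groups, 5.64% of all genes did not overlap.

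Levels can be ranked between genes when they are divided by exon length, here the union of annotated exons. Per kilobase, Mbp averaged 1.43 ± 0.645 CPM and Prx 1.21 ± 0.536 CPM (SD over the libraries, n = 16). S100b followed at 0.794 ± 0.283, Mal at 0.577 ± 0.322, Sox10 at 0.542 ± 0.23, Cdh19 at 0.319 ± 0.152, Ncmap at 0.279 ± 0.15 and Mag at 0.128 ± 0.0525 CPM per kilobase. Each step down this order from Mbp to Ncmap was smaller than the larger SD of the neighbours, and the last step, to Mag, was about the SD of Ncmap.

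Most of the 8 genes were high together or low together in some libraries, and such libraries were found in several groups. For each library the log2 CPM of each gene was set against that gene's mean over the 16 libraries, and the 8 deviations were averaged. Healthy inhibitor 3 was highest at 1.04, followed by injured placebo 4 at 0.61 and healthy placebo 2 at 0.41. Injured placebo 2 was lowest at -0.94, then healthy placebo 4 at -0.69, although for S100b that library was among the 3 highest, and injured inhibitor 2 at -0.46. Healthy inhibitor 3 was above the mean for 8 of 8 genes and the highest library for 7 of them; Mag was the exception. Injured placebo 2 was the lowest library for 5. Adipocyte markers summed to 425, 471 and 224 CPM in the 3 highest libraries and to 18.2, 40.8 and 21.6 CPM in the 3 lowest, in the orders given. Injured inhibitor 4, with the most at 1050 CPM, stood at 0.27, and healthy inhibitor 2, with 362 CPM, at -0.22. The part of adipocytes in the result was not tested. The group means of this deviation were -0.03 ± 0.47 for healthy placebo, -0.08 ± 0.69 for injured placebo, 0.17 ± 0.61 for healthy inhibitor and -0.06 ± 0.38 for injured inhibitor (SD, n = 4), which lie closer together than the libraries within any of the groups.

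**Figure D2:**
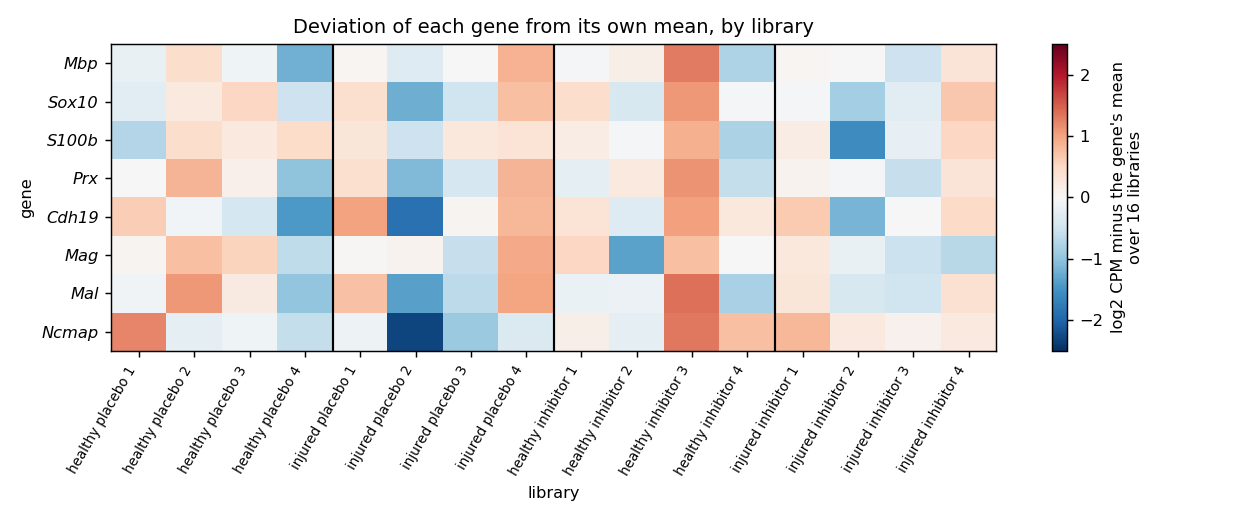
Log2 CPM of each gene (rows) in each library (columns) minus the gene's mean over the 16 libraries; red is above and blue below that mean, and black lines part the 4 groups. Healthy inhibitor 3 is red in all 8 rows, and healthy placebo 4 and injured placebo 2 are blue in 7 of 8 rows.

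Pairs of genes were correlated over the 16 libraries, which come from 8 animals and so are not fully independent. Of 28 pairs, 27 had a positive Pearson's r on log2 CPM, with a median of 0.55. After Benjamini-Hochberg adjustment over the 28 pairs, 7 passed 0.05 in permutation tests of both Pearson's r and Spearman's rho (100000 permutations, two-sided). Prx and Mal were the closest pair, with r = 0.97 and rho = 0.97 and an adjusted permutation p of 0.00014 for both, from 1e-05, the smallest p that these permutations can give, and r was 0.95 without the 2 libraries farthest from the median of Prx. The other pairs that passed were Mbp with Prx (r = 0.89, rho = 0.90) and with Mal (0.83 and 0.85), Sox10 with Prx (0.76 and 0.73), with Cdh19 (0.76 and 0.71) and with Mal (0.83 and 0.79), and Cdh19 with Mal (0.71 and 0.68). Without the 2 farthest libraries the r of these 6 pairs was 0.83, 0.77, 0.59, 0.61, 0.72 and 0.52 in that order. With each group's mean subtracted first, Prx and Mal had r = 0.97 and Mbp and Prx 0.93, so these relations hold within groups.

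S100b, Mag and Ncmap were in none of the 7 pairs that passed. The highest r of Mag was 0.57, with Mal (rho = 0.54, adjusted permutation p of 0.046 and 0.06), and that of Ncmap 0.65, with Cdh19 (rho = 0.54, adjusted permutation p of 0.015 and 0.06), which was 0.36 without the 2 farthest libraries and 0.84 with the group means subtracted. S100b and Ncmap had r = -0.01 and rho = -0.14 with each other (adjusted permutation p of 0.96 and 0.63). Without the 4 libraries high in Prg4, left out after the data were seen, S100b had r = 0.85 with Sox10 in place of 0.67 and 0.80 with Mal in place of 0.57, and Ncmap had -0.06 with Mal in place of 0.46 and 0.03 with Sox10 in place of 0.49. Ncmap rests on 3 to 35 counts per library. The library with most of the 8 genes had 26706577 counts in all and the one with least 23558077.

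**Figure D3:**
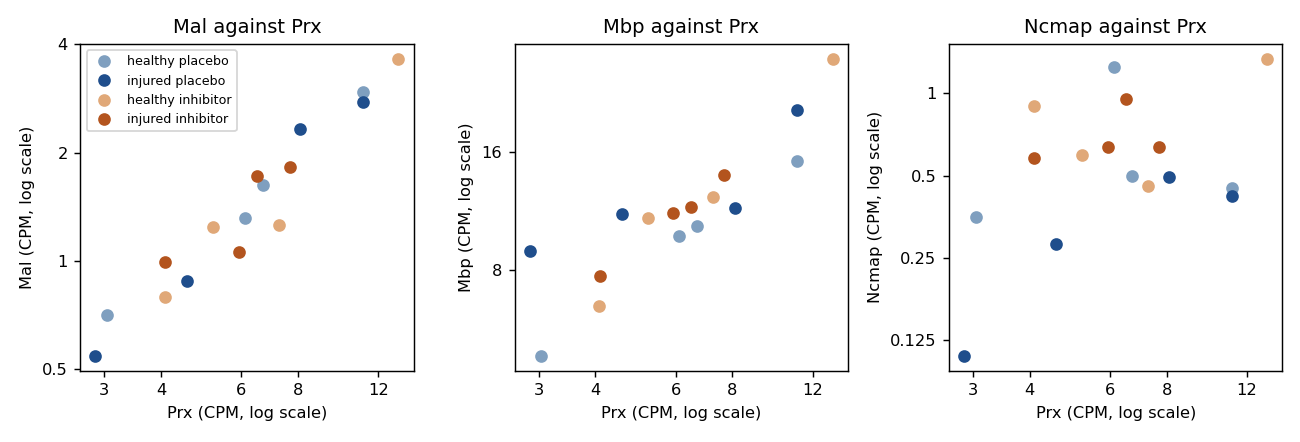
Mal, Mbp and Ncmap against Prx in the 16 libraries, as CPM on log axes, with a colour for each group. Over the 16 libraries Mal and Mbp are mostly higher where Prx is higher, with r of 0.97 for Mal and 0.89 for Mbp, while Ncmap follows it loosely (r = 0.45).

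Genes outside the set were then ranked by the r of their log2 CPM with the mean z-score of the 8, over 12992 genes with a mean log2 CPM of at least 0 in the 16 libraries. High in this order were Rapgef3, Hspa12a, Sfrp5, the predicted gene Gm49338, Lims2, Gucy1a1, Itgb4, Tmem45b and Sars, with r from 0.80 to 0.85. Itgb4, the integrin subunit that anchors Schwann and perineurial cells to laminin, was at 10.4 CPM in healthy inhibitor 3 and 3.67 CPM in injured placebo 2. In all, 82 genes had r above 0.7. These r are given as a description of 16 libraries that differ in makeup. The adipocyte genes Cfd (0.77) and Adipoq (0.74) and the endothelial gene Cdh5 (0.78) also stood high. The other endothelial markers, Pecam1 and Esam, were lower, at 0.53 and 0.52. Of the joint and cartilage markers that were ranked, Prg4 was at -0.50, Col11a2 at -0.47, Comp at -0.46 and Chad at -0.14. Cytl1 was at 0.49. Without the 4 libraries high in Prg4, r was 0.72 for Itgb4, 0.64 for Adipoq and 0.08 for Prg4. The part of adipose or joint tissue in these relations was not tested.

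The first comparison set injured against healthy quadriceps in placebo animals, for the effect of cutting the ligament without the inhibitor. No gene of the set passed the test. The log2 differences of Sox10, Prx, Mal, S100b and Mag lay between -0.06 and 0.00, that of Mbp was 0.37 ± 0.41 (SE) and that of Cdh19 0.49 ± 0.55. Ncmap had the largest, at -0.98 ± 0.54, from a healthy mean of 0.637 ± 0.41 CPM and an injured mean of 0.325 ± 0.169 CPM (SD, n = 4). EdgeR's quasi-likelihood test, with Benjamini-Hochberg adjustment over 15411 genes, called 0 of the 8 (adjusted p from 0.64 to 1.0) and 0% of all genes. At an unadjusted p under 0.05 it took 0 of the 8 against 7.24% of all genes, and DESeq2 called 2 genes in all, none of them among the 8. The median of the 8 was -0.02, against 0.01 over all genes tested, and the CPM of the groups overlapped for all 8, while 1.55% of all genes had groups that did not overlap. The 95% interval of Prx, from -0.99 to 0.95, and that of Mbp, from -0.52 to 1.26, leave room for differences about as large as the one found for Ncmap. Without healthy placebo 1, the highest Ncmap library of its group, the difference of Ncmap was -0.43.

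The limbs of single animals differed in opposite directions. In placebo animal 2 all 8 genes were lower in the injured limb, with a mean log2 difference of -1.35, and in placebo animal 4 the injured limb was higher for 7 of 8, with a mean of 1.31. Animals 1 and 3 stood at 0.26 and -0.42. The injured limbs of animals 2 and 3 and the healthy limb of animal 4 were libraries high in Prg4, and in each the limb with more Prg4 had less of the 8 genes on average. The healthy limb of inhibitor animal 1 was high in Prg4 too, and there the injured limb was higher by 0.14. Without the 4 libraries high in Prg4, the log2 differences were 0.26 ± 0.42 for Prx, 0.37 ± 0.54 for Mal, 0.24 ± 0.58 for S100b and 0.065 ± 0.64 for Mag, all with the opposite sign to the values above and none past the threshold (edgeR adjusted p from 0.98 to 1.0), with 2 injured placebo libraries left. The part of joint tissue in the difference between limbs was not tested.

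Under the inhibitor the same comparison gave log2 differences between -0.41 and -0.23, negative for 8 of 8, with none past the threshold. Mbp was -0.37 ± 0.41, Sox10 -0.40 ± 0.45, Prx -0.31 ± 0.45 and Mag -0.41 ± 0.51, and edgeR's adjusted p was 1.0 for every gene. Here 1 library weighed heavily: inhibitor animal 3, whose healthy limb was the highest of all 16, had all 8 genes lower in the injured limb, with a mean log2 difference of -1.35. Animals 1, 2 and 4 stood at 0.14, -0.23 and 0.52. Without healthy inhibitor 3, the log2 difference was 0.17 for Mbp, 0.13 for Prx and 0.35 for Mal. It was 0.11 for Ncmap, 0.077 for S100b and 0.022 for Cdh19, while Sox10 (-0.056) and Mag (-0.14) stayed negative. EdgeR called 0% of all genes here, 1.31% had an unadjusted p under 0.05, none of them among the 8, and DESeq2 called 1 gene, not one of the 8. The median of the 8 was -0.31, against 0.0 over all genes, and groups that did not overlap were found for 2.25% of all genes and 0 of the 8.

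**Figure D4:**
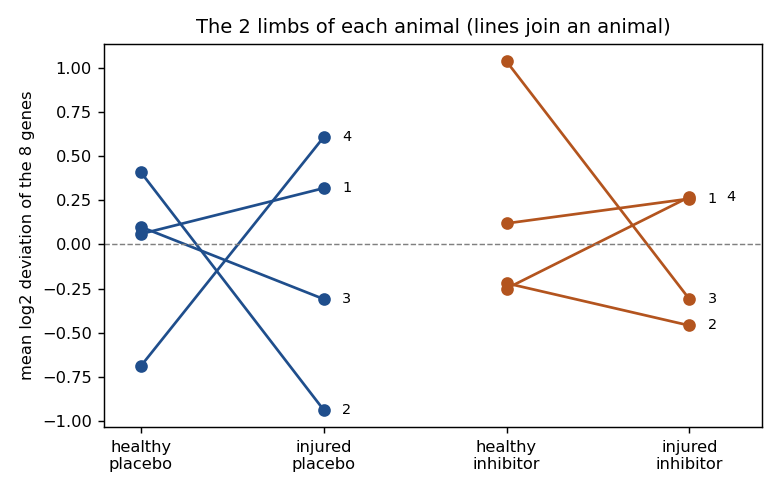
Mean log2 deviation of the 8 genes from their means over the 16 libraries (y axis) in the healthy and the injured limb of each animal; a line joins the limbs of 1 animal and the number is that of the animal. Placebo animals 2 and 4 cross in opposite directions (-1.35 and 1.31), and inhibitor animal 3 stands at -1.35.

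The inhibitor was compared with placebo in injured quadriceps, a comparison that shares its injured placebo libraries with that of injury under placebo. Apart from Ncmap, the log2 differences lay between -0.47 (Mag) and -0.07 (Sox10), with Mbp at -0.22 ± 0.41 and Prx at -0.13 ± 0.46. Ncmap averaged 0.325 ± 0.169 CPM with placebo and 0.701 ± 0.172 CPM with inhibitor (SD, n = 4), a log2 difference of 1.11 ± 0.54 that did not pass edgeR's test (adjusted p = 0.35, from 0.14 to 0.88 over 24 alternatives). Its groups did not overlap, which held for 1 of the 8 genes and for 5.64% of all genes in this comparison. Without the 4 libraries high in Prg4 the difference of Ncmap was 0.62 ± 0.61. EdgeR called 0% of all genes here, and an unadjusted p under 0.05 was reached by 14.9% of all genes and by 0 of the 8. DESeq2 called 248 genes and limma-voom with quality weights 1348, none of them among the 8. The median of the 8 was -0.20, against -0.02 over all genes.

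In healthy quadriceps the inhibitor groups gave log2 differences of 0.52 ± 0.41 for Mbp, 0.56 ± 0.55 for Cdh19, 0.34 ± 0.45 for Sox10 and 0.36 ± 0.51 for Ncmap. The other 4 lay between -0.11 and 0.15. None passed the threshold (edgeR adjusted p = 1.0 for each), against 0% of all genes called, and an unadjusted p under 0.05 was found for 3.34% of all genes and none of the 8; DESeq2 called 12 genes, none of the 8. The median of the 8 was 0.24, against -0.02 over all genes, and 0 of the 8 and 2.55% of all genes had groups that did not overlap. Without healthy inhibitor 3, Mbp stood at -0.015, Prx at -0.28 and Mal at -0.58. Cdh19 (0.27 to 0.95) and Ncmap (0.016 to 0.91) stayed positive whichever single library was left out. The test of whether the injury effect differed between inhibitor and placebo gave log2 differences from -0.75 (Cdh19) to 0.75 (Ncmap), with standard errors of 0.59 to 0.79 and no gene of the 8 past the threshold (edgeR adjusted p = 1.0). Of all genes, 0% were called in it and 2.74% had an unadjusted p under 0.05.

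**Figure D5:**
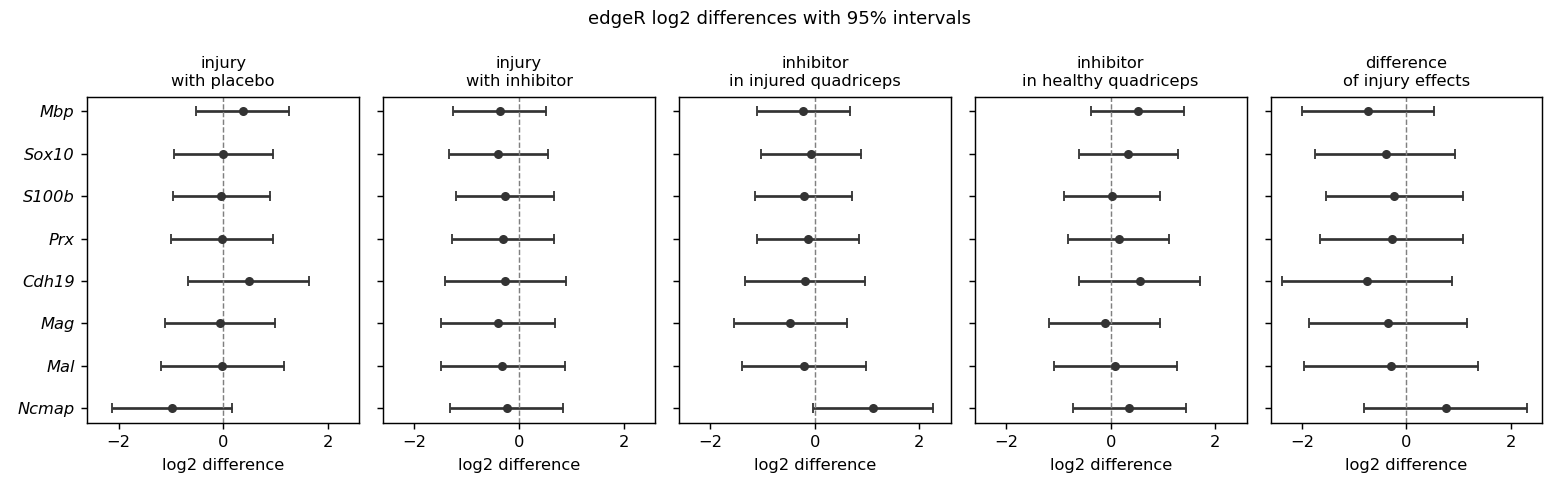
Log2 differences of the 8 genes (points) with 95% intervals (bars) from the edgeR fit, in 5 panels for the 5 comparisons; the dashed line is no difference. All 40 intervals include 0, and Ncmap in injured quadriceps (-0.03 to 2.25) comes nearest to leaving it out.

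Other genes of the same cells were read from lists chosen by function. Of 17 further myelin genes, 14 were tested and none was called in any of the 5 edgeR comparisons, beside 0% of all genes. Their medians ran from -0.32 to 0.14. Pmp22, a membrane protein of compact myelin that fibroblasts make too, averaged 27.7 ± 11.6, 31.2 ± 4.4, 28.0 ± 10.3 and 27.7 ± 3.82 CPM in healthy placebo, injured placebo, healthy inhibitor and injured inhibitor (SD, n = 4). Drp2, the dystrophin relative that periaxin binds, was the only one of the 14 with an unadjusted p under 0.05: in injured quadriceps it was at 10.3, 10.3, 13.5 and 12.8 CPM with placebo and at 6.93, 8.31, 7.76 and 7.38 CPM with inhibitor. This 1 of 14 is a smaller share than the 14.9% of all genes with such a p in that comparison. Those groups did not overlap, as was so for 5.64% of all genes, the log2 difference was -0.63 ± 0.21, and edgeR's adjusted p was 0.23. Drp2 also had an unadjusted p under 0.05 for the difference of injury effects (-0.72 ± 0.29), where it was not called. There too it was 1 of 14, beside 2.74% of all genes. Over the libraries Drp2 had r = 0.43 with the mean z-score of the 8, and 0.74 without the 4 libraries high in Prg4.

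Of 24 further Schwann cell genes, 18 were tested and none was called in any edgeR comparison, beside 0% of all genes. For the inhibitor in injured quadriceps, 6 of the 18 (Cdh2, Egr2, Erbb3, Matn2, Ncam1 and Sox8) had an unadjusted p under 0.05, beside 14.9% of all genes, and the lowest adjusted p was 0.24. For injury with placebo it was 2 of 18 (Erbb3 and Ncam1), beside 7.24% of all genes. Each of the 6 was higher in injured placebo 2 and 3, both high in Prg4, than in injured placebo 1 and 4. In that order Cdh2 stood at 7.02 and 5.41 against 1.65 and 1.18 CPM, and Matn2 at 16.2 and 13.2 against 4.29 and 4.53 CPM. The part of joint tissue in these differences was not tested. Ncam1, an adhesion molecule of unmyelinated Schwann cells and of muscle fibres that have lost their nerve, averaged 5.91 ± 2.68 CPM in healthy placebo and 16.1 ± 12.1 CPM in injured placebo (log2 difference 1.45 ± 0.48, edgeR adjusted p = 0.64). The injured mean came from 24.9 and 28.2 CPM in injured placebo 2 and 3, both high in Prg4, against 5.81 and 5.58 CPM in injured placebo 1 and 4. With inhibitor the injured limb averaged 6.79 ± 1.64 CPM (log2 difference from injured placebo -1.25 ± 0.47, edgeR adjusted p = 0.26). Scn7a, a sodium channel gene of unmyelinated Schwann cells, stood at 8.94 and Zeb2, a transcription factor of many cells, at 30.9 CPM in injured placebo, against 7.31 and 28.0 CPM in healthy placebo. Erbb3, the Schwann cell's neuregulin receptor, which muscle fibres use as well, was named after its values were seen: it averaged 9.17 ± 1.89 CPM in injured and 6.49 ± 2.04 CPM in healthy placebo, and its r with the 8 was -0.03.

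Genes of the repair state gave 8 tested members of 14. For injury under placebo all had positive log2 differences (median 0.60, against 0.01 over all genes), and edgeR called none of them, beside 0% of all genes. An unadjusted p under 0.05 was found for 1 of the 8 there (Clcf1), beside 7.24% of all genes, and for 2 of the 8 (Jun and Runx2) for the inhibitor in injured quadriceps, beside 14.9%. Clcf1 was at 4.84 and 1.92 CPM in injured placebo 2 and 3, both high in Prg4, against 0.76 and 1.01 CPM in injured placebo 1 and 4. Runx2 was at 4.47 and 2.13 against 0.849 and 0.294 CPM in the same libraries, and Atf3 at 6.91 and 9.22 against 4.16 and 1.89 CPM. Lif was at 1.31 and 1.12 against 0.0894 and 0.546 CPM, and Gdnf at 1.42 and 1.08 against 0.894 and 0.546 CPM. Tnc divided in this way too, while Jun and Bdnf did not. The part of joint tissue in these values was not tested. Jun, the transcription factor at the head of that state and an early response gene of most cells, averaged 74.4 ± 16.2 and 80.3 ± 3.01 CPM in healthy and injured placebo. With inhibitor Jun averaged 97.0 ± 12.1 and 101 ± 11.4 CPM in healthy and injured quadriceps. The log2 difference from placebo was 0.33 ± 0.13 in injured quadriceps (edgeR adjusted p = 0.28). The groups did not overlap there, as was so for 5.64% of all genes. In healthy quadriceps the difference was similar, at 0.38 ± 0.13, and was not called. Jun was there the 1 of 8 with an unadjusted p under 0.05, beside 3.34% of all genes. Tnc, a matrix protein that tendon and wounded tissue also make, was at 70.4, 90.2 and 31.8 CPM in the placebo libraries high in Prg4 and at most 10.5 CPM in the other 13. Atf3, a stress-induced transcription factor, averaged 3.84 ± 2.37 and 5.54 ± 3.2 CPM in healthy and injured placebo and 4.63 ± 1.48 and 5.64 ± 2.23 CPM with inhibitor.

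Of 11 genes of axons 3 were tested, of 5 genes of neuregulin signalling 3, and of 11 genes of the nerve sheath 9. EdgeR called none of them in any comparison, beside 0% of all genes. For injury with placebo, 1 of the 3 axon genes (Uchl1) and 1 of the 3 neuregulin genes (Adam17) had an unadjusted p under 0.05. Of the 9 sheath genes 0 had such a p there, beside 7.24% of all genes. Uchl1, an enzyme of axons, averaged 2.08 ± 1.29 CPM with placebo in the healthy limb and 5.22 ± 2.76 CPM in the injured one (log2 difference 1.33 ± 0.61, edgeR adjusted p = 0.64), with 5.23, 7.63, 6.66 and 1.34 CPM in injured placebo 1 to 4 and 1.05 to 3.98 CPM in healthy placebo. Stmn2, a tubulin-binding protein of growing axons, stood at 1.88 and 1.99 CPM in those groups, and Prph, an intermediate filament of peripheral neurons, at 0.3 and 0.497 CPM. Of the neuregulin genes, the protease Adam17, which cleaves neuregulin, averaged 21.5 ± 4.42 and 29.1 ± 5.59 CPM in healthy and injured placebo (0.43 ± 0.15, edgeR adjusted p = 0.64). Bace1, another such protease, stood at 53.3 and 51.2 CPM and the receptor gene Erbb2 at 3.3 and 4.14 CPM. In the sheath, Itgb4 averaged 5.71 ± 2.39 and 6.85 ± 3.88 CPM, the glucose transporter gene Slc2a1 9.47 ± 3.15 and 10.3 ± 2.0 CPM and the transcription factor gene Etv1 4.0 ± 0.88 and 4.12 ± 0.989 CPM. Slc2a1 was the 1 sheath gene of 9 with an unadjusted p under 0.05 for the inhibitor in injured quadriceps, a share below the 14.9% of all genes, with a log2 difference of -0.49 ± 0.23 (edgeR adjusted p = 0.33).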

How the data were processed

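Per the labels' protocols, RNA came from TRIzol and a kit extraction. The authors deposited estimated counts per Ensembl gene, not normalized and already filtered on low features; the genome was GRCm38/mm10 and the tools listed were DESeq2, Partek and STAR, per the submitters' processing notes, in roles not given in the sources used here, and whether counting used strand is not given either. Of the deposited values, 24.2% lay over 0.01 from a whole number, and all were rounded. Symbols and positions came from GENCODE M21 (GRCm38), which named 17338 of 17370 genes, and promoters from RefSeq.

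EdgeR 4.0.16 in R 4.3.3 kept 15411 genes (filterByExpr, minimum count 10), used TMM scaling and modelled all 16 libraries with 1 mean for each of 4 groups by robust quasi-likelihood (12 residual degrees of freedom). Log2 CPM in correlations used a prior count of 2. Alternatives used DESeq2 1.42.0 and limma 3.58.1. The test was tried on simulated counts. Limbs were paired by the stem of the library name, read as 1 animal, although the series' design text speaks of before and after. Deviations of such limbs from their group means correlated at -0.53 to 0.47, and limma's estimate of the correlation within animals was 0.016. The genes and lists were chosen with earlier results of these data known. From the lists, the 3 most abundant tested genes and any called gene were to be named; genes shown by likeness, Erbb3 and the cell markers come beside them. A gene that this rule selects is not reported here.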

Additional observations from a re-analysis of the deposited data

Results flagged for a closer look

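In 32 sets of 4 libraries (8 genes in 4 groups), 4 had a library far from the other 3 by Dixon's test; chance marks about 1 in 20 sets. S100b was at 0.763 CPM in injured placebo 2 against 1.32 to 1.39 in the rest of its group. Mal was at 3.64 CPM in healthy inhibitor 3, the library highest in 7 of the 8 genes. Ncmap was at 1.25 CPM in healthy placebo 1 and at 0.956 CPM in injured inhibitor 1, the highest of their groups.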

How the results depend on the processing

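None of the 8 genes was called in any comparison under any of 25 settings (lowest adjusted p 0.14). Of 952 alternative values, 872 kept their sign and 80 reversed it, 54 of them when 1 library was left out; the cause was not tested. Where the sign reversed for injury with placebo, Sox10 was -0.0017 with DESeq2 size factors, -0.0032 with no low-count filter, -0.0021 with DESeq2, -0.49 with limma-voom and quality weights, -0.17 with a correlation within animals and -0.11 with the animal as replicate block, and Cdh19 was -0.10 with quality weights. Leaving out the 4 libraries high in Prg4, a choice made after seeing the data, gave 0.24 for S100b, 0.26 for Prx, 0.065 for Mag and 0.37 for Mal, and -0.031 for Mal for the inhibitor in healthy quadriceps. For the inhibitor in injured quadriceps, Sox10, Prx, Cdh19 and Mal were 0.34, 0.32, 0.39 and 0.48 with quality weights and 0.093, 0.046, 0.10 and 0.087 with a correlation within animals. For the difference of injury effects, Sox10, Prx, Mag and Mal were 0.008, 0.081, 0.089 and 0.34 with quality weights, and Mal 0.001 with a correlation within animals. S100b was -0.014 for the inhibitor in healthy quadriceps with the replicate number as replicate block; the block changed no call of the 8.

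With 1 library left out in turn, these genes reversed their sign at least once. For injury with placebo the range was Sox10 -0.34 to 0.26, S100b -0.25 to 0.13, Prx -0.39 to 0.33, Mag -0.4 to 0.14, Mal -0.41 to 0.41. For injury with inhibitor the range was Mbp -0.61 to 0.17, S100b -0.54 to 0.077, Prx -0.51 to 0.13, Cdh19 -0.48 to 0.022, Mal -0.55 to 0.35, Ncmap -0.43 to 0.11. For the inhibitor in injured quadriceps the range was Mbp -0.36 to 0.088, Sox10 -0.39 to 0.27, S100b -0.47 to 0.064, Prx -0.38 to 0.23, Cdh19 -0.53 to 0.12, Mal -0.5 to 0.17. For the inhibitor in healthy quadriceps the range was Mbp -0.015 to 0.79, Sox10 -0.0069 to 0.53, S100b -0.32 to 0.23, Prx -0.28 to 0.5, Mag -0.38 to 0.17, Mal -0.58 to 0.51. For the difference of injury effects the range was S100b -0.5 to 0.12, Prx -0.63 to 0.15, Mal -0.73 to 0.36.

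Of all genes, DESeq2 called 2, 1, 248 and 12 for injury with placebo, injury with inhibitor, and the inhibitor in injured and in healthy quadriceps, in place of 0. In injured quadriceps quality weights called 1348 and the replicate number as block 1. With 1 library left out, the calls were 0 to 3 for injury with placebo (3 without injured placebo 4), 0 to 39 for the inhibitor in injured quadriceps (39 without injured placebo 4, 1 without healthy placebo 1) and 0 to 1 for it in healthy quadriceps (1 without healthy placebo 1 or injured placebo 1). At 3 to 35 counts for Ncmap and 5 to 22 for Mag, counting error limits both.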
